A study of Mus musculus with 16 samples.

Results

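The CpGs described here were methylated in one parental culture of immortalised mouse embryonic fibroblasts (MEFs) and less methylated in its sibling culture. A CpG was a member when both parental libraries had at least 20 reads there, the MEF-2 parental level was 90% or more and the MEF-1 parental level was under 60%. The level is the percentage of reads called methylated. Of 1203687 CpGs in the table of the series, 1062454 had the required parental reads and are called eligible, and 17699 of them (1.67%) were members. They made up 6.70% of the 264168 eligible CpGs at 90% or more in the MEF-2 parental library. Because the parental levels chose the members, the parental difference is a description and carries no test. Levels in the clonal lines had no part in the choice.

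Methylation was measured by target capture bisulfite sequencing (tcBS-seq), in which probes enrich chosen genomic regions and unmethylated cytosines are converted before sequencing. Both cultures came from E13.5 C57BL/6J sibling embryos that differed in sex, and both were immortalised by serial passage, so no primary fibroblasts were compared. MEF-1 and MEF-2 parental cells were sequenced as 1 library each, and each culture gave 7 clonal lines that were grown from 1 sorted cell apiece. A culture and its 7 lines form a family, and with 1 embryo per family a difference between families cannot be told apart from a difference between embryos, sexes or cultures. Cell identity could not be checked with methylation data alone.

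In mammals a methyl group on the cytosine of a CpG is copied onto the new DNA strand after replication by the maintenance enzyme DNMT1, which UHRF1 brings to hemimethylated sites, and DNMT3A and DNMT3B can add methyl groups at unmethylated sites. Promoters rich in CpGs are mostly unmethylated, whereas gene bodies and intergenic DNA are mostly methylated. A culture of many cells can show an intermediate level because its cells differ, because alleles differ or because single cells do not keep 1 state. A line grown from a single cell begins without the differences between cells.

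Most members stood alone among other CpGs, but some lay next to each other in runs, and the sequences of 5 runs are given to show how members lay among other CpGs and bases, close together in some runs and farther apart in others. They were chosen among the runs with most members to cover a coding exon, a promoter, introns and a noncoding exon. All are the + strand of mm10, with the member CpGs in capitals and all other bases, including CpGs that were not members, in lower case.
Hoxb3 coding exon, chr11:96344271-96344381: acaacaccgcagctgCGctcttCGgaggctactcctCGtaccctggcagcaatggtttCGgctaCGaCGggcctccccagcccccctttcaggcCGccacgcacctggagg
Gpr19 promoter, chr6:134897214-134897393: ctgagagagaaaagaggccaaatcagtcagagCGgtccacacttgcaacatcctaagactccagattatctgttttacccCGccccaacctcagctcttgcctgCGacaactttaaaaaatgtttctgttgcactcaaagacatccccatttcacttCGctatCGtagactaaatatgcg
Adamts14 intron, chr10:61248751-61248879: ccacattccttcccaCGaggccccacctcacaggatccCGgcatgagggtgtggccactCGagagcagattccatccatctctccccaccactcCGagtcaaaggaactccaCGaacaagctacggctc
Dclk2 intron, chr3:86919026-86919231: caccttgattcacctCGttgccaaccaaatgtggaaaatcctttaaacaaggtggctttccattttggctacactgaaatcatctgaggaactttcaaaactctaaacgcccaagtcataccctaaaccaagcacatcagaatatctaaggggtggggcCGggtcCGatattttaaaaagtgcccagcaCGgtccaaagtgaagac
Noncoding exon near Zfp503, chr14:21993580-21993737: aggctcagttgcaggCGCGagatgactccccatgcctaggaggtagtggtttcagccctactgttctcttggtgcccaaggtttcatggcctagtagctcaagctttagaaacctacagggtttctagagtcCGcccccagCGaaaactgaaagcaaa
The Hoxb3 window holds 9 CpGs, 7 of them members, and the Dclk2 window holds 5 CpGs, 4 of them members. The Gpr19 window shows 5 of the 6 members of its run, because it was ended at an annotated untranslated region.

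The libraries held 59243669 to 90633091 calls (1 call is 1 read over 1 CpG), and at members the median coverage per library was 29 to 44 reads. Intervals of single parental levels cover counting error only, and the median 95% Wilson interval of a member's MEF-1 parental level was 27.7 points wide. Coverage of chromosome 18, which was not compared, set MEF-1 lines 1, 4 and 5 apart, at 0.504 to 0.529 times that of the median MEF-2 line against 0.934 to 1.03 in MEF-1 lines 2, 3, 6 and 7. Chromosomes 12 and 19, also not compared, were at 0.524 to 0.551 and at 1.37 to 1.49 in all MEF-1 lines. Several results on MEF-1 lines are therefore also given for these groups of lines, and the others are over all 7 lines. MEF-2 line 3 had fewer members at 90% or more than the other MEF-2 lines, and the mean of that share is also given without it.

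The question was whether the difference between the parental cultures was present in lines that each began with 1 cell. Mean levels over the members were 47.3, 49.1, 49.2, 47.6, 47.6, 48.1 and 50.0% in MEF-1 lines 1 to 7, and 43.8% in their parental library. MEF-2 lines 1 to 7 had 93.8, 93.9, 93.2, 94.1, 94.0, 93.5 and 93.5%, and their parental library had 95.4%. Members were chosen on parental levels that carry counting error. Here and below, lines can therefore lie above the MEF-1 and below the MEF-2 parental level through the choice alone. The part of the choice in these shifts was not tested. The groups of lines did not overlap, and averaged 48.4% ± 1.02 for MEF-1 lines and 93.7% ± 0.326 for MEF-2 lines (SD, n = 7 each), a difference of 45.3 points. Over all eligible CpGs the order of the families was the opposite, with 44.9% ± 0.381 in MEF-1 and 43.2% ± 0.501 in MEF-2 lines (SD, n = 7 each).

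CpG by CpG, the clonal lines were compared by logistic regression on methylated and unmethylated reads (the quasi-binomial model), fitted at all 1203687 CpGs with Benjamini-Hochberg adjustment over all of them. A CpG was called at an adjusted p under 0.05. Of the 17699 members, 15801 (89.3%) were called higher in MEF-2 clonal lines, against 8.53% of all CpGs tested. Without MEF-1 lines 1, 4 and 5 the number was 13819, in a fit with fewer lines for which no share over all CpGs was computed. No member was called higher in MEF-1 clonal lines, against 11.6% of all CpGs tested, and at an unadjusted p under 0.05 the same model also counted 0 such members. All 7 MEF-1 lines lay below all 7 MEF-2 lines at 10883 members (61.5%), against 4.22% of all CpGs. The median difference over members was 41.4 points, beside −0.621 points over all CpGs tested, and the middle 90% of members ran from 19.6 to 85.0 points.

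The remaining 1898 members (10.7%) were not called. Their median coverage per line was 30.5 reads, against 34.5 at called members, and their median difference was 21.5 points, against 43.0. MEF-2 lines averaged 85.3% at members that were not called and 94.7% at called members. The mean of the MEF-2 lines was not above that of the MEF-1 lines at 28 members. These 28 were thus picked by their clonal levels as well as by their parental levels. They averaged 93.1% in the MEF-2 parental library and 67.0% in its lines. In the MEF-1 parental library they averaged 51.9%, and in its lines 73.7%.

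Reads limited how surely a member lay under 60%. The whole 95% Wilson interval of the MEF-1 parental level was under 60% at 6749 members (38.1%), where MEF-1 lines averaged 33.8%. Of these members 94.8% were called higher in MEF-2 lines, against 89.3% of all members and 8.53% of all CpGs tested. Members with a MEF-1 parental level of 55 to 60% numbered 4541 and had 59.1% in MEF-1 lines, whereas the 5255 CpGs just outside, at 60 to 65%, had 61.6%. Members with a MEF-2 parental level of 90 to 92.5% numbered 3904 and had 91.0% in MEF-2 lines, whereas the 3307 CpGs just outside, at 87.5 to 90%, had 88.5%.

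**Figure D1:**
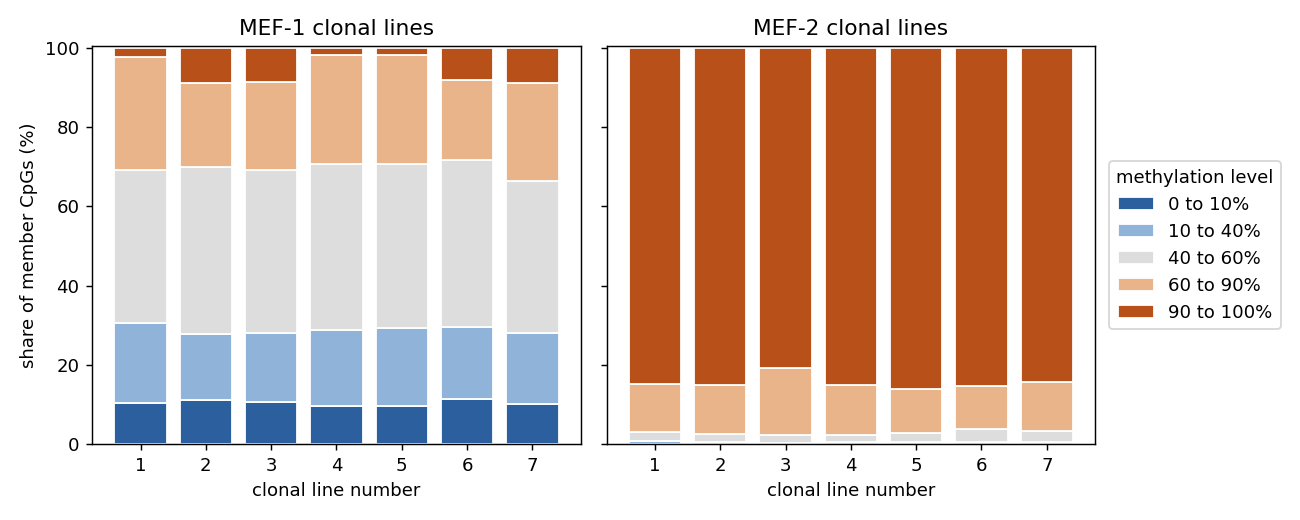
Share of the 17699 members (y axis, %) in 5 classes of methylation level in each clonal line (x axis), with MEF-1 lines on the left and MEF-2 lines on the right. Members at 90% or more make up 80.7 to 85.9% in MEF-2 lines and 1.71 to 8.87% in MEF-1 lines.

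MEF-2 lines had 84.5% ± 1.71 of members at 90% or more (SD, n = 7). Lines 1 to 7 had 84.8, 85.0, 80.7, 85.2, 85.9, 85.1 and 84.4%, so that line 3 lay below the others, and without it the mean was 85.1%. At 8445 members (47.7%) all 7 MEF-2 lines, line 3 included, were at 90% or more. At CpGs at 90% or more in both parental libraries this held for 69.3%, and at reciprocal CpGs (90% or more in the MEF-1 parental library, under 60% in the MEF-2 parental library) it held for 54.2% in MEF-1 lines. These shares are side by side without a test, and the part of line 3 in the share at members was not tested.

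Members low in a MEF-2 line were mostly low in that line alone. A level under 60% in at least 1 MEF-2 line was found at 2678 members (15.1%), and at 2050 of these it was found in exactly 1 line. Line 6 had the most such members of its own (424) and line 2 the fewest (198). In only 43 members were 4 or more MEF-2 lines under 60%. A level under 10% in any MEF-2 line was found at 46 members.

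MEF-1 lines had 69.7% ± 1.68 of members under 60% (SD, n = 7), from 66.5% in line 7 to 71.7% in line 6. Lines 1, 4 and 5 had 69.3 to 70.8% and lines 2, 3, 6 and 7 had 66.5 to 71.7%, so that the groups of lines overlapped. All 7 lines were under 60% at 4106 members (23.2%). At 9272 members (52.4%) all 7 lines were between 10 and 90%, at 257 all 7 were under 10%, and at 1 member all 7 were at 90% or more.

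**Figure D2:**
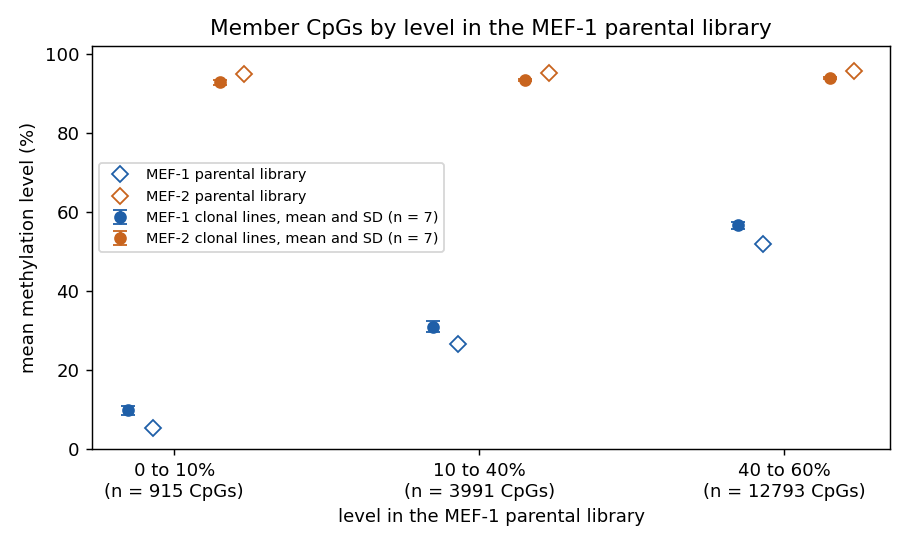
Mean methylation level of members (y axis, %) grouped by their level in the MEF-1 parental library (x axis). Filled points with bars are the mean and SD over 7 clonal lines and open diamonds are single parental libraries. MEF-1 lines average 9.85, 31.0 and 56.6% from left to right, and MEF-2 lines stay between 92.8 and 93.9%.

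MEF-1 levels in the clonal lines followed the parental level. The 915 members under 10% in the MEF-1 parental library had 9.85% ± 1.16 in MEF-1 lines, the 3991 members at 10 to 40% had 31.0% ± 1.46, and the 12793 members at 40 to 60% had 56.6% ± 0.882 (SD, n = 7 each). MEF-2 lines had 92.8% ± 0.573, 93.4% ± 0.324 and 93.9% ± 0.331 at the same members. Calls higher in MEF-2 lines covered 99.8, 95.5 and 86.6% of members in these groups, against 89.3% of all members and 8.53% of all CpGs. Within MEF-1 lines, 71.3% ± 2.08 of members under 10% in the parent stayed under 10%, and 49.1% ± 2.00 of members at 40 to 60% in the parent stayed at 40 to 60% (SD, n = 7). These shares were 71.1 to 71.7% and 46.8 to 50.8% in lines 1, 4 and 5, within the 67.0 to 73.9% and 45.9 to 50.9% of lines 2, 3, 6 and 7. On the 5 chromosomes whose coverage stayed within 0.1 of the median MEF-2 line in every library, the last share was 49.9% ± 0.932 (SD, n = 7).

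A measured level of 40 to 60% was seldom shared by all MEF-1 lines. Only 260 of the 12793 members at 40 to 60% in the parent (2.03%) were at 40 to 60% in all 7 lines. Between 10 and 90% in all 7 were 8007 (62.6%). With a median of 29 to 41 reads per line, counting error alone can move a steady level of 50% out of 40 to 60%. It does so more often in at least 1 of 7 lines than in a given line. Its part in these shares, and in the shares above that stayed in their class, was not tested. At 260 of all members (1.47%) at least 1 MEF-1 line was under 10% and another at 90% or more. The deposited fidelity score, the fraction of the 14 lines with a level of 0 to 10, 40 to 60 or 90 to 100%, averaged 0.727 at members, 0.760 at reciprocal CpGs, 0.832 at eligible CpGs and 0.951 at CpGs at 90% or more in both parental libraries. The score counts lines of both families, so MEF-2 lines at 90% or more count towards it at members.

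**Figure D3:**
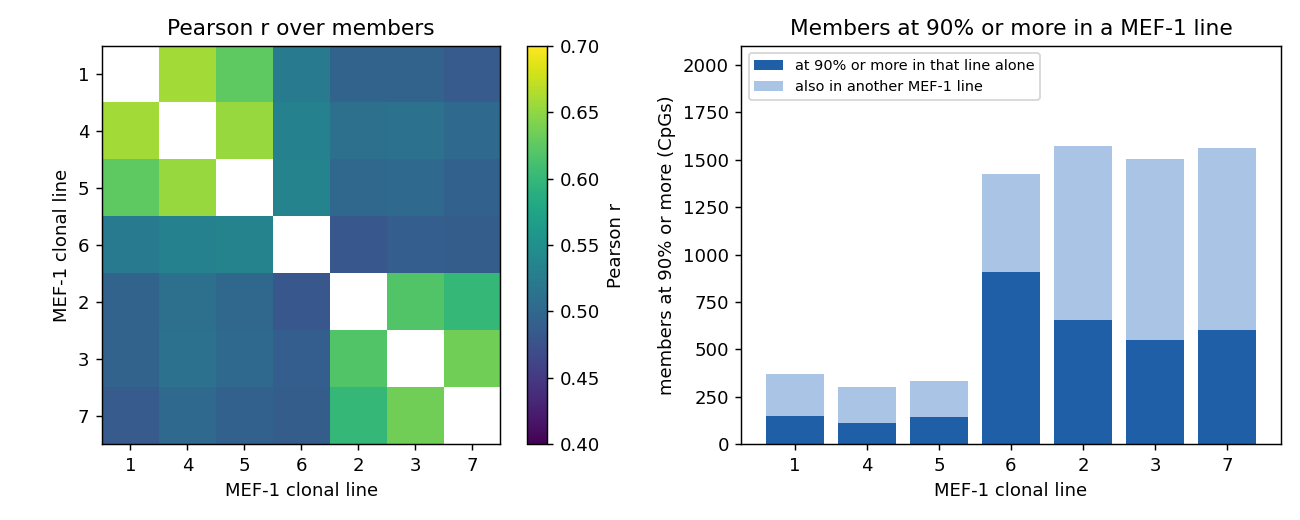
Left, Pearson r between the levels of each pair of MEF-1 lines over the 17699 members (colour scale), with lines ordered 1, 4, 5, 6, 2, 3, 7. Right, the number of members at 90% or more in each MEF-1 line (y axis, CpGs), split into members at that level in 1 line alone and in more than 1. Lines 1, 4 and 5 have 303 to 369 such members and the other lines 1426 to 1570.

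MEF-1 lines formed groups at the members. Mean levels of lines 1, 4 and 5 were 47.3 to 47.6% and those of lines 2, 3, 6 and 7 were 48.1 to 50.0%. Over all eligible CpGs the order was the opposite, with 45.1 to 45.4% in lines 1, 4 and 5 and 44.4 to 44.9% in the others. Members at 90% or more made up 2.08, 1.71 and 1.88% in lines 1, 4 and 5, whose chromosome 18 coverage was low, and 8.87, 8.49, 8.06 and 8.84% in lines 2, 3, 6 and 7. Lines 1, 4 and 5 had more members at 60 to 90%, at 27.5 to 28.6% against 20.2 to 24.7% in the other lines. Of the 4629 members with a MEF-1 line at 90% or more, 3798 had such lines only among 2, 3, 6 and 7 and 467 only among 1, 4 and 5. Lines 1, 4 and 5 were all below lines 2, 3, 6 and 7 at 870 members (4.92%, against 2.38% of all CpGs) and all above them at 893 (5.05%, against 3.84%). The members lie on other chromosomes than 18, and the part of copy number in these values was not tested.

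Lines 2, 3 and 7 also shared members. Over the 17699 members, which share libraries and depth, Pearson r was 0.60 to 0.635 among lines 2, 3 and 7 and 0.625 to 0.658 among lines 1, 4 and 5, while line 6 had 0.522 to 0.534 with lines 1, 4 and 5 and 0.481 to 0.490 with lines 2, 3 and 7. Lines 2, 3 and 7 had 0.486 to 0.512 with lines 1, 4 and 5. The r of line 6 was thus slightly higher with lines 1, 4 and 5 than with lines 2, 3 and 7. Its chromosome 18 coverage and its share of members at 90% or more were like those of lines 2, 3 and 7. Depth differs between lines and its part in r was not tested, so line 6 is placed with neither group. Among MEF-2 lines r was 0.185 to 0.352 in every pair, over a narrower span of levels. Of the 601 members at 90% or more in exactly 3 MEF-1 lines, 436 had lines 2, 3 and 7. Line 6 had the most members at 90% or more in no other MEF-1 line, 909 of 3119. Single lines correlated with the MEF-1 parental library at r = 0.572 to 0.680, with lines 1, 4 and 5 at 0.655 to 0.680.

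Spread between lines beyond read sampling was expressed as a share of the variance that lines would have if each were fully methylated or unmethylated, and its error came from omitting each line in turn. This share was 0.0962 ± 0.00978 (SE) in MEF-1 lines and 0.120 ± 0.00775 in MEF-2 lines over all members. Among lines 1, 4 and 5 it was 0.0529 ± 0.00553 and among lines 2, 3, 6 and 7 it was 0.108 ± 0.0200. Within MEF-1, members under 10% in the parent had 0.155 ± 0.0140 and members at 40 to 60% had 0.0829 ± 0.00873. For lines 1, 4 and 5 these shares were 0.0965 and 0.0465, and for lines 2, 3, 6 and 7 they were 0.174 and 0.0940.

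Position and sequence around the members were not part of the choice, and they were compared with CpGs at 90% or more in both parental libraries (213605) and with reciprocal CpGs (28714). Differences were taken within each of 16 chromosomes and tested by two-sided exact sign-flip tests, adjusted over the 8 differences. Promoters, here the 1000 bp upstream of any annotated start of a protein-coding gene, held a mean of 9.51% of a chromosome's members against 4.42% of its CpGs methylated in both, a difference of 5.09 points ± 1.46 (SD over chromosomes) that was positive on 16 of 16 chromosomes (exact adjusted p = 8.14e-05). Against reciprocal CpGs the promoter difference was 0.101 points ± 1.56 (exact adjusted p = 0.817, positive on 9 of 16). Members lay in a promoter or transcript of a protein-coding gene 5.55 points ± 2.38 less often than CpGs methylated in both (exact adjusted p = 8.14e-05, lower on 16 of 16 chromosomes). They lay there 2.80 points ± 2.36 more often than reciprocal CpGs (exact adjusted p = 0.000977, higher on 13 of 16).

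The bases next to the CpG also differed. An A or T on both sides was found at 22.2% of members and 18.3% of CpGs methylated in both, a difference of 3.91 points ± 1.52 (exact adjusted p = 8.14e-05, positive on 16 of 16 chromosomes). Against reciprocal CpGs the difference was −0.110 points ± 1.60 (exact adjusted p = 0.817). CpG density, the number of other CpGs within 100 bp, averaged 3.72 at members and 4.02 at CpGs methylated in both, a difference of −0.301 ± 0.202 (exact adjusted p = 0.000122, lower on 15 of 16 chromosomes). This direction did not hold when 1 CpG was kept per 200 bp, where members were 0.571 higher (exact adjusted p = 8.14e-05). Within 250 bp it was −0.188 (exact adjusted p = 0.188), so no direction is given for density. Against reciprocal CpGs density differed by −0.117 (exact adjusted p = 0.0825).

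By location, 7356 members (41.6%) lay in introns, 6079 (34.3%) between genes, 1682 (9.50%) in promoters, 1395 (7.88%) in coding exons, 617 (3.49%) in untranslated regions and 570 (3.22%) in noncoding exons. Of all eligible CpGs 36.7% lay in introns, 27.5% between genes and 18.4% in promoters, so that members were 0.859% of eligible promoter CpGs against 1.67% of all eligible CpGs. Promoters thus held a smaller share of members than of eligible CpGs, and a larger share than of CpGs methylated in both parental libraries. Promoter members had 44.2% ± 1.08 in MEF-1 lines and 94.6% ± 0.416 in MEF-2 lines (SD, n = 7 each), and 93.2% of them were called. Intergenic members had 48.5% ± 1.18 and 93.0% ± 0.506, and 87.6% were called. Both called shares lay near the 89.3% of all members, with 8.53% over all CpGs. Of the members under 10% in the MEF-1 parental library 18.5% lay in promoters, and of those at 40 to 60% 8.72% did. The median distance to a protein-coding start was 3623 bp in the first group and 10582 bp in the second.

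**Figure D4:**
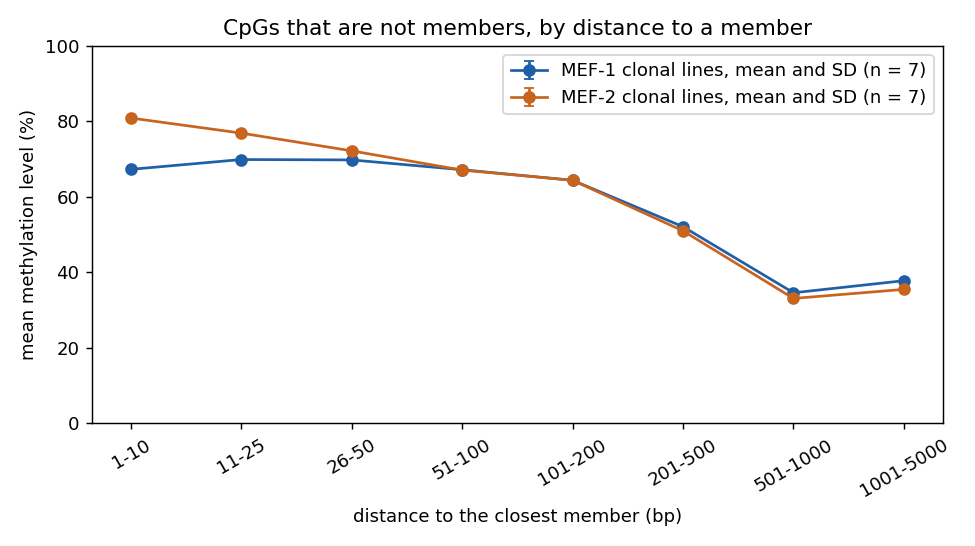
Mean methylation level of eligible CpGs that are not members (y axis, %) by distance to the closest member (x axis, bp), as mean and SD over 7 clonal lines per family. At 1 to 10 bp MEF-2 lines average 80.9% and MEF-1 lines 67.3%, and at 51 to 100 bp they average 67.1 and 67.2%.

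MEF-2 lines were higher near members, by less with each step out to 50 bp. Beyond 200 bp MEF-1 lines had the higher mean, as they also had over all eligible CpGs (44.9 against 43.2%). The CpGs counted here leave out the members but keep the reciprocal CpGs, which by itself moves their mean towards MEF-1. Eligible CpGs at 1 to 10 bp from a member that were not members themselves (4466) had 67.3% ± 0.338 in MEF-1 and 80.9% ± 0.524 in MEF-2 lines (SD, n = 7 each). Of them 29.1% were called higher in MEF-2 and 5.15% higher in MEF-1 lines, against 8.53 and 11.6% of all CpGs tested. At 11 to 25 bp the difference was 7.00 points, at 26 to 50 bp 2.35 points and at 51 to 100 bp −0.0229 points, where 14.0% were called higher in MEF-2 and 14.5% higher in MEF-1 lines. Beyond 1000 bp MEF-1 lines were the higher ones by 2.31 points or more. An eligible CpG within 100 bp existed for 15745 members, and the closest one was itself a member at 11.9% of them. It was at 90% or more in both parental libraries at 29.3%, and under 60% in the MEF-2 parental library at 22.2%. Neighbours that share reads with a member are not independent of it.

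Runs were 3 or more members in a row among eligible CpGs, each within 200 bp of the next. There were 164 runs with 533 members (3.01% of all members), and the reciprocal CpGs, counted the same way, had 450 runs with 1581 CpGs (5.51%). Reciprocal CpGs are more numerous (28714 against 17699), which by itself raises the number of runs and the share in runs. The part of this was not tested. Runs of 3 members numbered 135, runs of 4 numbered 20, runs of 5 numbered 7, and 1 run each had 6 and 7 members. Their span was 6 to 453 bp with a median of 41 bp. Members in runs had 43.3% in MEF-1 and 95.0% in MEF-2 lines, and 95.7% were called higher in MEF-2 lines, against 89.3% of all members and 8.53% of all CpGs. In 153 of the 164 runs the mean levels of all 7 MEF-1 lines lay below those of all 7 MEF-2 lines. Single CpGs had lines in this order at 61.5% of all members and 4.22% of all CpGs, and a mean over several CpGs varies less than a single CpG. Runs touched promoters in 24 cases and lay wholly between genes in 50.

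**Figure D5:**
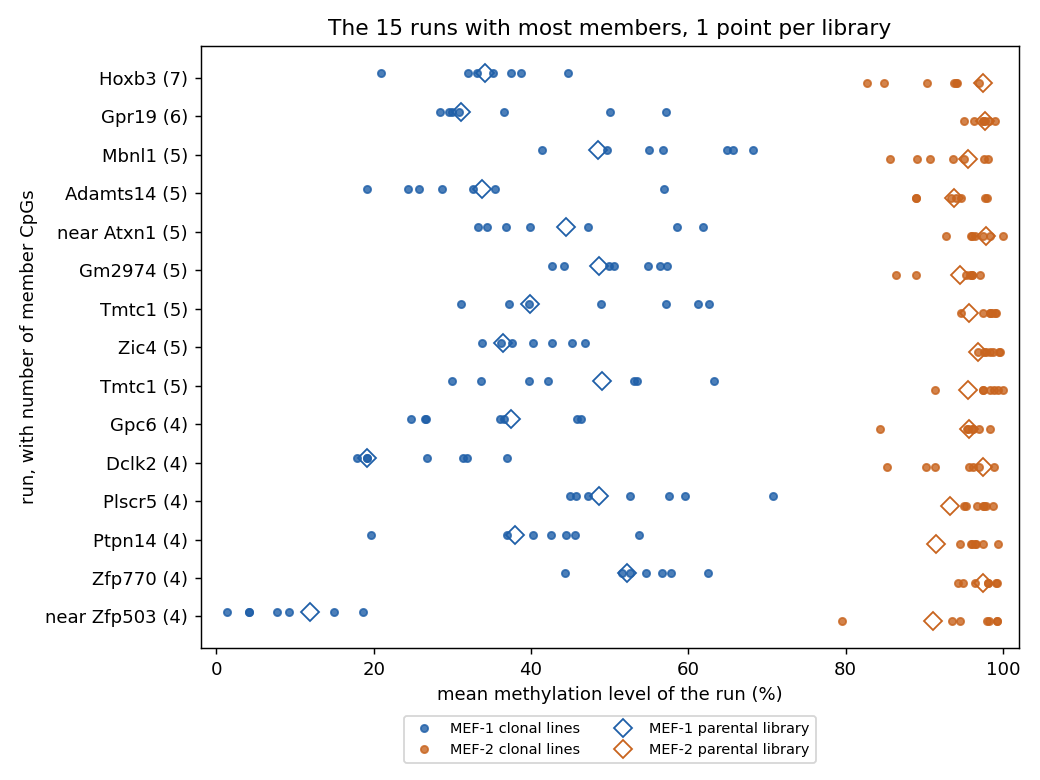
Mean methylation level (x axis, %) of the 15 runs with most members (y axis, with the number of members), with 1 filled point per clonal line and an open diamond per parental library. In all 15 runs the highest MEF-1 line lies below the lowest MEF-2 line.

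Of runs with equal numbers of members the longer ones were described first, so that the 15 runs with most members include 6 of the 20 runs of 4. Among these 15 all had lines that did not overlap, and in 13 of them every member was called, against 147 of all 164 runs. The run in Hoxb3, a homeobox transcription factor of anterior to posterior patterning, had 7 members over 81 bp of a coding exon (mm10 chr11:96344286-96344366). MEF-1 lines 1 to 7 had 35.2, 38.7, 44.7, 33.1, 20.9, 37.4 and 32.0% and MEF-2 lines had 82.7, 96.9, 84.9, 90.3, 94.0, 93.8 and 94.2%. Line 5 was the lowest MEF-1 line, and every MEF-2 line was at least 82.7%. All 7 members were called, with adjusted p from 1.21e-06 to 0.00398 in the quasi-binomial model.

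The Gpr19 run had 6 members over 171 bp (chr6:134897208-134897378), upstream of an annotated start of this orphan G protein-coupled receptor. An exon of another annotated transcript of the gene overlaps the run. MEF-1 lines 1 to 7 had 29.6, 30.9, 50.0, 29.9, 28.4, 36.6 and 57.1%, with lines 3 and 7 highest, and MEF-2 lines had 95.1 to 99%. The Adamts14 run, in an intron of a procollagen-processing metalloprotease (chr10:61248766-61248864), had 19.2 to 35.4% in 6 MEF-1 lines and 56.9% in line 3, against 88.9 to 98.0% in MEF-2 lines. In the Dclk2 run, in an intron of a microtubule-associated kinase (chr3:86919041-86919216), MEF-1 lines had 17.9 to 36.9% with a median of 26.8% and MEF-2 lines had 85.2 to 98.8%. The noncoding exon run 3994 bp from the start of Zfp503, a zinc-finger repressor, had the lowest MEF-1 levels of the 15, from 1.39 to 18.6%, against 79.5 to 99.3% in MEF-2 lines (chr14:21993595-21993722).

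A pair of adjacent runs in a Tmtc1 intron (chr6:148354639-148354661 and chr6:148354694-148354748) overlaps or flanks Rps4l, annotated as a processed pseudogene of a ribosomal protein, so reads of near-identical copies are a limit there. MEF-1 lines had 29.9 to 63.2% in the first and 31.1 to 62.6% in the second, and MEF-2 lines had 91.4% or more in both. Another run of 3 members in the same stretch (chr6:148354985-148354998), outside the 15, had 37.7 to 57.2% in MEF-1 lines and 71.5 to 97.1% in MEF-2 lines, where line 1 was lowest. The Gm2974 run had a median coverage of 282 reads, far above the 35 reads of the median member, and its levels are uncertain because many genomic copies may share the reads. The run in an untranslated region of Zic4, a zinc-finger factor of hindbrain development, had 33.7 to 46.9% in MEF-1 and 96.8 to 99.6% in MEF-2 lines. The remaining runs of the 15 lay in Mbnl1 (a splicing regulator), Gpc6 (a heparan sulfate proteoglycan), Plscr5, Ptpn14 (a tyrosine phosphatase) and Zfp770, and 78252 bp from the start of Atxn1. Their MEF-1 lines ranged from 19.7% in Ptpn14 to 70.8% in Plscr5, and their MEF-2 lines were at 84.4% or more. In the Mbnl1 run 4 of 5 members were called and in the Gpc6 run 3 of 4.

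A few runs were close to all or nothing between the families, and these were picked after their values were seen, so they are described without a test. Of the 7 runs with the largest differences, 4 lay in promoters. At Trnt1, which adds the CCA end to tRNAs, 3 members (chr6:106768867-106768883) had a median of 1.88% and a maximum of 12.8% over MEF-1 lines, against 95.5 to 99.4% in MEF-2 lines. At Lin54, the DNA-binding subunit of a cell-cycle repressor complex, 3 members (chr5:100501188-100501219) had a median of 2.30% and a maximum of 5.45%, against 86.7 to 98.9%. At Msrb1, a methionine sulfoxide reductase, the values were 1.33 to 21.0% against 94.9% or more. At Has3, a hyaluronan synthase, they were 0.952 to 35.8% with a median of 3.90%, against 90.2 to 98.0%. The other 3 runs lay in a coding exon of C530008M17Rik, an untranslated region of Nkx6-1 and the noncoding exon near Zfp503.

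Promoters held a member at 1321 of the 11895 protein-coding genes with an eligible promoter CpG, and 69 had 3 or more. In 60 of these 69 every member was called higher in MEF-2 lines, and in 67 the mean levels of the families' lines did not overlap. For single CpGs these shares were 89.3 and 61.5% of all members, and 8.53 and 4.22% of all CpGs. The 10 genes with most promoter members outside the runs above held 4 to 6 of them, with ties taken in alphabetical order, by which Abhd13 was taken before other genes with 4. Tapbp, whose product tapasin loads MHC class I molecules with peptides, had 6 members of 47 eligible promoter CpGs, at 36.7 to 48.9% in MEF-1 and 94.9 to 98.4% in MEF-2 lines. The MEF-1 lines thus spanned a narrow range, close to the parental 41.2%. All 6 were called, with adjusted p from 1.54e-05 to 0.00145 in the quasi-binomial model.

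Most of the other promoters also had all their members called. Irf4, a transcription factor of lymphocytes, had 32.5 to 51.6% in MEF-1 lines and 90.5 to 96.9% in MEF-2 lines. Phospho1, a phosphatase of bone mineralisation, had 45 to 62% and 89.5 to 98.8%. Art3, of the ADP-ribosyltransferase family, had 21.2 to 43.5% and 70.9 to 99.1%, and 4 of its 5 members were called. Atp6v0e2, Atp8a2, Gopc, Tgfa and Abhd13 had all their 4 or 5 members called, with MEF-1 lines between 26.5% in Gopc and 65.3% in Tgfa and MEF-2 lines at 87.0% or more.

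The lists of genes give the wider view, read against the share of members among eligible CpGs (1.67%) and among CpGs at 90% or more in the MEF-2 parental library (6.70%), with no test. Over all protein-coding genes, 5928 of the 15212 with an eligible CpG held a member, and 89.3% of all members were called higher in MEF-2 lines, against 8.53% of all CpGs. Homeobox and other developmental transcription factors had members in 48 of 157 genes. They held 139 members, 1.04% of eligible CpGs and 6.44% of those at 90% or more in the MEF-2 parental library, and 131 of them (94.2%) were called higher in MEF-2 lines. Six2, a homeobox factor of kidney progenitors, had 19 members of 81 eligible CpGs. MEF-1 lines 1 to 7 had 48.1, 37.6, 44.9, 38.0, 42.2, 36.8 and 53.6% there, and MEF-2 lines had 96.7, 97.7, 90.9, 94.0, 95.7, 94.8 and 96.5%. All 19 were called, with adjusted p from 3.71e-07 to 0.00368 in the quasi-binomial model.

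Zic4 had 14 members in all, at 40.7 to 50.9% in MEF-1 and 97.1 to 99.6% in MEF-2 lines, and Hoxb3 had 11, at 21.2 to 39.0% and 86.9 to 97.6%. Lhx9, a LIM homeobox factor of gonad and limb, had 10, at 50.5 to 69.2% and 91.8 to 97.6%. All members of these 3 genes were called.

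Fibroblast identity and matrix genes had 13 members in 6 of 28 genes, 4.15% of their CpGs at 90% or more in the MEF-2 parental library, and 12 (92.3%) were called. Both genes with 3 or more members encode collagens. Col5a1 had 4 members at 44.8 to 70.0% in MEF-1 and 97.1 to 99.4% in MEF-2 lines, and Col1a1 had 3 at 28.5 to 40.6% in 6 MEF-1 lines and 65.5% in line 4, against 92.0 to 99.1%. Senescence and immortalisation genes had 13 members in 7 of 20 genes, 5.02% of their CpGs at 90% or more in the MEF-2 parental library, all called. Among them were 3 members in Tert, the telomerase catalytic subunit, at 36.0 to 59.3% and 93.3 to 97.6%, and 3 in Cbx7, a Polycomb protein, at 47.4 to 66.2% and 84.3 to 97.2%. DNA methylation enzymes and readers had 5 members in 4 of 12 genes, 2.04% of their CpGs at 90% or more in the MEF-2 parental library, all called.

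Imprinted genes, of which one parental allele is normally methylated at control regions, had 36 members in 15 of 33 genes, 1.27% of eligible CpGs and 5.55% of those at 90% or more in the MEF-2 parental library, and 31 (86.1%) were called. Mcts2, an imprinted retrogene inside H13, had 5 members, which are also among the 6 of H13. MEF-1 lines 1 to 7 had 56.5, 61.2, 41.6, 61.2, 46.8, 56.3 and 42.2% at the Mcts2 members and MEF-2 lines had 95.4% or more. No MEF-1 line was near 0 or 100% there. Trappc9 had 6 members at 45.3 to 63.3% against 93.0 to 98.2%, and Slc38a4, an amino acid transporter gene, had 4 at 33.3 to 49.3% against 80.0 to 95.4%. Whether these CpGs lie in the control region of an imprint was not checked.

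Germline genes had 14 members in 6 of 16 genes, 3.08% of eligible CpGs and 5.86% of those at 90% or more in the MEF-2 parental library, with 12 (85.7%) called. Piwil2, of the piRNA pathway, had 4 members at 40 to 55.5% in MEF-1 and 82.5 to 100% in MEF-2 lines, and Stra8, which acts at the start of meiosis, had 4 at 44.0 to 71.4% and 87.2 to 98.6%. DNA repair and tumour suppressor genes had 11 members in 6 of 15 genes, 1.02% of eligible CpGs, 10 of them (90.9%) called. Marker genes of other cell types had 29 members in 14 of 21 genes, 9.18% of their CpGs at 90% or more in the MEF-2 parental library, with 27 (93.1%) called. Epcam, of epithelial cells, had 6 at 40.1 to 71.0% and 94.4 to 99.1% with 5 called. Spi1, of myeloid cells, had 4 at 26.3 to 52.1% and 82.4 to 98.3%, all called, and Esr1, the oestrogen receptor, had 4 at 48.1 to 72.6% and 74.4 to 95.4% with 3 called.

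The single members with the smallest p were deeply covered or close to all or nothing. At Mtch1, a mitochondrial outer membrane insertase gene, a CpG 723 bp before the start (chr17:29348657) had 14 of 116 methylated reads in the MEF-1 parental library (95% Wilson interval 7.33 to 19.2%) and 132 of 137 in the MEF-2 parental library (91.7 to 98.4%). MEF-1 lines had 3.54 to 10.6% and MEF-2 lines 98.2 to 99.2% (quasi-binomial model, adjusted p = 3.19e-09). At Gml (chr15:74814048), in an intron, MEF-1 lines had 1.75 to 7.44% and MEF-2 lines 83.9 to 92.0% (quasi-binomial model, adjusted p = 3.29e-09). The remaining 3 lay in Gm3739, Gm3667 and Gm13283, at 2.09 to 9.84% in MEF-1 and 94.2 to 99.3% in MEF-2 lines. Their 14 lines together held 6614, 6935 and 2373 reads, and their values are uncertain because reads of repeated copies may be pooled. Members with over 100 reads in the median library numbered 298 (1.68%), against 1.80% of all CpGs.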

How the data were processed

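Per the labels and the study's methods, the authors trimmed reads with Trim Galore 0.6.0, aligned them to mm10 with Bismark, left out reads with a mapping quality under 10, combined both strands of a CpG and used R 3.6.1. They deposited counts of methylated and unmethylated reads per CpG for each of 16 libraries, and a table of 1203687 CpGs with 10 or more reads in every library, on 16 chromosomes. Chromosomes 12, 18, 19, X and Y are not in that table. The deposited percent is 100 times methylated over all reads, and the deposited fidelity score is a fraction computed by the authors over the 14 clonal lines. Counts of the table equalled those of the library files at all 1203687 CpGs.

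Here the levels were recomputed from counts, and clonal lines of the 2 families were compared at every CpG with a quasi-binomial logistic model (dispersion at least 1, F test, Benjamini-Hochberg adjustment over all CpGs). The model was first tried on simulated data, whose spread between lines was smaller than that found at members, so its error rate at members was not tested. The spread between clonal lines is the error, so p-values describe these lines and not embryos, and the single parental libraries entered no test. Neighbouring CpGs share reads and are not independent. Positions come from GENCODE M21 and sequence from GRCm38 (mm10). Chromosome-wise differences used exact sign-flip tests, whose smallest two-sided p over 16 chromosomes is 3.05e-05. Python 3.11.15, numpy 2.4.6, scipy 1.17.1, pandas 2.3.3, numba 0.67.0 and matplotlib 3.10.9 were used.

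The members, gene lists and tests were chosen with earlier results of these data known. Named were the 15 runs with most members (ties by longer span, then position), the 10 further genes with most promoter members (ties by name, and 1 of them is not reported here), up to 4 genes with 3 or more members of each list, and the 5 members with the smallest p, 1 per gene. The rule also named up to 3 members called higher in MEF-1 lines, of which there were none. Alternatives were other read minimums, thinning of reads, leaving out each line, other windows, a replicate block, and, chosen after seeing the data, chromosomes with even coverage and members without very deep coverage.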

Additional observations from a re-analysis of the deposited data

Results flagged for a closer look

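Each value below is a clonal line that lay far from the other 6 lines of its family, by Dixon's ratio of the gap to the range. Of 98 groups of 7 lines examined 9 were marked in this way, and chance marks about 1 in 20 groups.

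In MEF-1 lines, the Adamts14 run had 56.9% in line 3 against 19.2 to 35.4% in the others, and the Col1a1 members had 65.5% in line 4 against 28.5 to 40.6%.

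In MEF-2 lines, the share of members at 90% or more was 80.7% in line 3 against 84.4 to 85.9% in the others. The Tmtc1 runs had 94.7% in line 5 against 97.4 to 99.1% and 91.4% in line 4 against 97.4 to 100%. The Gpc6 run had 84.4% in line 2 against 95.4 to 98.4%, and the run near Zfp503 had 79.5% in line 6 against 93.5 to 99.3%. The Gopc promoter had 87.0% in line 4 against 94.6 to 97.5% and Spi1 had 82.4% in line 2 against 92.2 to 98.3%. All 7 MEF-2 lines stayed above all 7 MEF-1 lines in each of these named runs, promoters and genes.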

How the results depend on the processing

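With each clonal line left out in turn, members called higher in MEF-2 lines numbered 15273 to 15610, members called higher in MEF-1 lines 0 to 1 (1 without MEF-2 line 5), the difference in level was 45.1 to 45.6 points, the share at 90% or more in MEF-2 lines 84.2 to 85.1% and the share under 60% in MEF-1 lines 69.4 to 70.3%. With at least 20 reads in every clonal line, 10264 members were left, and 9400 were called higher in MEF-2 lines. No share over all CpGs was computed for this fit or for the fits with a line left out. With these members the share at 90% or more in MEF-2 lines was 86.3% and the share under 60% in MEF-1 lines 71.9%. With every clonal line thinned to 10 reads per CpG these shares were 87.3 and 57.8%. At that depth levels come in coarse steps around the 60% limit, and the part of this in the lower share was not tested.

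CpG density against CpGs methylated in both parental libraries was −0.188 within 250 bp (exact adjusted p = 0.188) and reversed to 0.571 with 1 CpG per 200 bp (exact adjusted p = 8.14e-05). Against reciprocal CpGs it was −0.125 with a parental minimum of 10 reads (exact adjusted p = 0.0422) and reversed to 0.0105 with 1 CpG per 200 bp (exact adjusted p = 0.790). Also against reciprocal CpGs, the share with A or T on both sides reversed to 0.115 points with a parental minimum of 30 reads (exact adjusted p = 0.852), and the promoter share reversed to −0.467 points when promoters ran to 500 bp past the start (exact adjusted p = 0.343). Neither was past the threshold under any setting of these. With 1 non-member allowed inside, runs numbered 261. The cause of these changes was not tested.

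Lines carry numbers 1 to 7 in both families. Deviations of same-numbered lines correlated at r = −0.00101 to 0.0152, and 2 of 7 lines correlated best with their own number, so the numbers were not taken to pair lines. With a replicate block, 14434 members (81.6%, against 7.38% of all CpGs) were called higher in MEF-2 lines and 0 higher in MEF-1 lines. Over all alternatives, those above included, 114 summary values and 741 values of named items were judged unchanged. Counts were judged so when they stayed within a fixed factor of the main count. Tested values had to keep their direction and their side of the threshold. Levels and shares had to move by less than the SD over lines. Depth limits single levels, since a line had a median of 29 to 41 reads at members.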
